A study of Rattus norvegicus with 6 samples.

Results

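Leukaemia inhibitory factor (LIF), oncostatin M and interleukin-6 belong to 1 family of cytokines that signal through the shared receptor chain gp130, the product of Il6st. LIF acts on a pair of gp130 and LIFR, and oncostatin M on a pair of gp130 and OSMR. Kinases of the JAK family, bound to these chains, phosphorylate STAT3, which then enters the nucleus, and SOCS proteins, several of which STAT factors induce, shut the signal off again. In peripheral nerve, LIF is known as a factor that Schwann cells make after injury and that changes which neuropeptides sensory and sympathetic neurons produce.

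The genes described here are the ligand Lif, the receptor chains Lifr and Osmr, the kinases Jak1 and Jak2, the transcription factor Stat3, and the inhibitors Socs1, Socs2, Socs3 and Cish. They were taken by symbol from the deposited mRNA table. Each had 1 row, except Socs2, which had none and is not analysed here, so 9 of the 10 genes were measured among 16551 genes in all.

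The samples were primary cells of rat dorsal root ganglia, prepared from ganglia of the lower lumbar and sacral levels, and kept for 48 h either in medium with glucose at 45 mmol/L (3 samples, titled DM) or in control medium (3 samples). That the DM titles stand for the high-glucose medium was read from the labels, which do not say so in those words, and the sources used here give no glucose concentration for the control medium. No strain, age or sex of the animals was given, and no group controls for the osmolarity of the added glucose. The growth protocol mentions fixation in paraformaldehyde, and whether the sequenced cells were fixed is unclear. Samples of 1 group are described as duplicates in the labels, with nothing on separate cultures or animals, so p-values reflect the sample-to-sample spread alone, and it may be technical. Values are log2 CPM, the logarithm of counts per 1000000 reads of a scaled library size, on tables of 28780612 to 33108451 reads per sample. Fold changes are high glucose minus control, with the standard error (SE) of the limma fit, and rest on 3 samples in each group. They depend on how libraries were scaled: scaled to plain read totals, the median gene had a log2 fold change of 0.125, against 0.012 on the deposited scale.

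The labels call the cells nerve cells, and the cultures held RNA of several cell types. Of all genes, 24.9% were higher in high glucose and 25.5% lower, the shares beside which each count below stands. Of 14 neuron markers, 8 were lower in high glucose and 1 was higher. Their summed level was 76.4 to 78.6 CPM in high glucose and 112 to 115 CPM in control, of which Uchl1 made up 56.1%. Several defining neuron markers were almost absent: Rbfox3 had 9 reads over the high-glucose samples and 6 over the control samples, and Isl1 had 2 and 7. Others were well read: Tubb3 had 847 and 2034 reads and Stmn2 had 259 and 1093, both lower. The marker that was higher, Syt1, had 1332 and 669. Of 12 markers of Schwann cells and satellite glia, 10 were lower and 1 was higher, at 401 to 440 CPM in high glucose and 563 to 586 CPM in control. Of 10 mural cell markers, 6 were lower and 2 higher (8320 to 8390 CPM against 14800 to 14900 CPM). Of 9 measured fibroblast markers, 6 were higher and 3 lower (52300 to 54900 CPM against 56800 to 59000 CPM, of which Col1a1 made up 54.8%). Of 8 macrophage markers, 2 were higher and 2 lower, near the shares of all genes (27.4 to 28.5 CPM against 19.9 to 21.5 CPM). Cd14 made up 53.6% of that sum and was higher, as was Csf1r. The 2 that were lower, C1qa and C1qb, had 22 and 27 reads in high glucose and 68 and 51 in control. No endothelial marker of 7 passed the limma test, while 3 had an unadjusted p under 0.05 and 0 passed with voom weights. Their summed level was 59.9 to 62.1 CPM against 62.7 to 66.5 CPM, of which Flt1 made up 68.7%. Cdh5, Kdr and Tie1 were almost absent, with 12, 11 and 3 reads in high glucose and 18, 5 and 8 in control. Tek was well read, with 1413 and 1312. Of the 2 lymphocyte and granulocyte markers with a row, neither passed in limma, with 0 at an unadjusted p under 0.05 and 0 with voom weights, at 0.543 to 0.833 CPM against 0.612 to 1.01 CPM. Fewer cells of a type and less RNA per cell cannot be told apart in such samples, and the part of these shifts in the results below was not tested.

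The ligand Lif and the receptor chains Lifr and Osmr moved in opposite directions. Lif RNA was 3.84-fold lower in high glucose, while Lifr, Osmr, Stat3 and Socs3 were higher by 1.16-fold to 1.38-fold. Jak1, Jak2, Socs1 and Cish did not pass. Of the 9 measured genes, 5 passed (55.6%), 4 of them higher and 1 lower, where 50.5% of all genes passed, 24.9% higher and 25.5% lower. The share of the 9 genes is near that of the whole table. The samples of the groups did not overlap in 6 of the 9 genes, and in 57.6% of all genes. In Lifr, Osmr, Stat3 and Socs3 the high-glucose samples all lay above, as in 28.7% of all genes, and in Lif and Jak1 all below, as in 28.9% of all genes. The median log2 fold change of the 9 genes was 0.22.

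**Figure D1:**
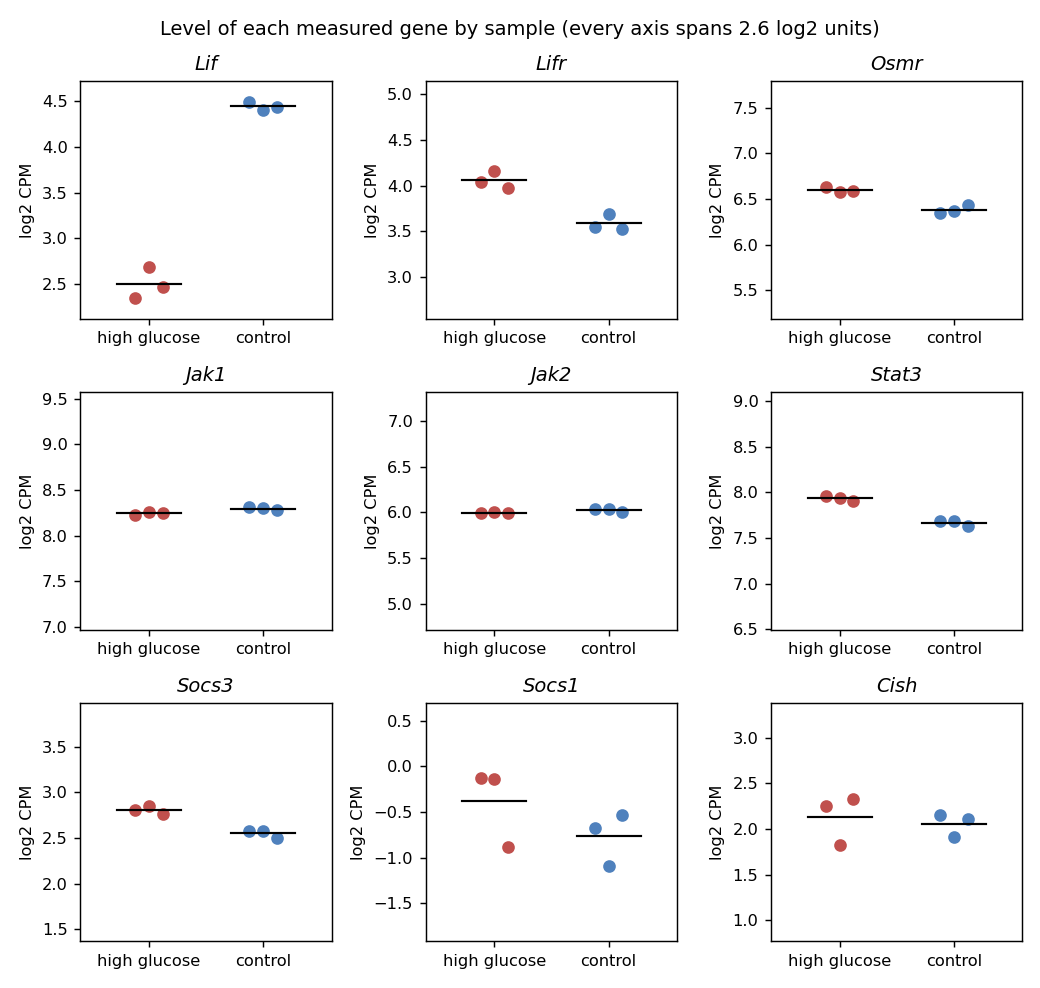
Level in log2 CPM of each of the 9 measured genes in the 3 high-glucose samples (red, left) and the 3 control samples (blue, right), with a line at each group mean, on axes of equal span. Lif lies near 2.5 in high glucose and near 4.44 in control, while the other genes differ by less than 0.5 log2 units between group means.

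Lif (ENSRNOG00000007002), the ligand, was counted with 152, 200 and 189 reads in the 3 high-glucose samples, against 622, 650 and 643 reads in the 3 control samples. On the log2 CPM scale these were 2.35, 2.68 and 2.47 in high glucose, against 4.49, 4.40 and 4.44 in control. Every high-glucose sample lay far below every control sample. On the log2 scale, though not in CPM, the control samples lay closer together than the high-glucose samples. Its mean level was 5.68 ± 0.667 CPM in high glucose and 21.7 ± 0.682 CPM in control (SD, n = 3 each). The log2 fold change was -1.94 ± 0.09 (SE, 95% interval -2.13 to -1.76, limma adjusted p = 4.77e-10). Of the 16551 genes, 168 had a lower log2 fold change than Lif. Leaving out any 1 sample gave -2.03 to -1.87.

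The genes whose levels over the 6 samples, each centred on its own mean, lay closest to Lif among 12246 others were Cobl, an actin nucleator, at a distance of 0.173 log2 units, Brinp2 at 0.194 and Mlph, melanophilin, at 0.2. Their log2 fold changes were -1.89 ± 0.07, -1.93 ± 0.17 and -2.01 ± 0.13. With 6 samples in 2 groups, this likeness is mostly that of the group difference.

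Lif was not the only cytokine of its family to differ. Of 9 measured IL-6 family cytokines, 4 were lower in high glucose and 2 higher, and the median log2 fold change was -0.49, where the median of all genes was 0.012. Without high glucose 3 the median of the 9 cytokines was -0.10, with 4 lower and 2 higher. Clcf1, a ligand that acts through gp130 and LIFR, rose 1.49-fold, with 4.26, 4.13 and 4.12 log2 CPM in high glucose and 3.52, 3.56 and 3.71 log2 CPM in control (0.57 ± 0.07, limma adjusted p = 1.24e-05).

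Il6, interleukin-6, had 420 reads over the high-glucose samples and 745 over the control samples, and was 1.90-fold lower (-0.93 ± 0.10, limma adjusted p = 4.04e-06). Cntf, ciliary neurotrophic factor, which Schwann cells make and which also acts through LIFR, was 1.40-fold lower (-0.49 ± 0.13, limma adjusted p = 0.00811). Its high-glucose samples lay at 1.89 to 2.20 log2 CPM, all below the control samples at 2.29 to 2.73 log2 CPM. Ctf1, cardiotrophin-1, another ligand of LIFR and gp130, rose 3.01-fold, with 3.46, 3.59 and 3.51 log2 CPM in high glucose and 2.06, 1.74 and 2.00 log2 CPM in control (1.59 ± 0.10, limma adjusted p = 2.56e-08). So the ligands that use LIFR did not share a direction. In the RefSeq gene table of another assembly, Ctf1 overlaps its paralog Ctf2 and Clcf1 overlaps Rad9a, and the strand of the counting was not given, so reads of these pairs may have been mixed.

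Osm, oncostatin M itself, was scarce, with 14 reads over the high-glucose samples and 19 over the control samples. Its log2 fold change of -0.88 ± 1.05 (limma adjusted p = 0.523) did not pass, and a change was not detectable at this depth. Il11 had 177 and 165 reads, and its value of -0.02 ± 0.17 did not pass either (limma adjusted p = 0.923). Ebi3, a subunit of interleukin-27, was counted with 62 reads over the high-glucose samples and 28 over the control samples and also did not pass (1.12 ± 0.45, limma adjusted p = 0.0553).

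The 3 chains of the LIF and oncostatin M receptors, Lifr, Osmr and Il6st, were higher in high glucose. Lifr (ENSRNOG00000011696), the LIF receptor chain, had 4.04, 4.16 and 3.97 log2 CPM in high glucose, against 3.55, 3.69 and 3.53 log2 CPM in control, on 493 to 560 reads and 325 to 398 reads per sample. The groups did not overlap, and the log2 fold change was 0.47 ± 0.07 (95% interval 0.32 to 0.62, limma adjusted p = 8.95e-05), or 1.38-fold.

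Osmr (ENSRNOG00000033192), the oncostatin M receptor chain, which also forms the interleukin-31 receptor together with IL31RA, had 6.63, 6.58 and 6.59 log2 CPM in high glucose, against 6.35, 6.37 and 6.43 log2 CPM in control. All high-glucose samples were above all control samples by a small margin. The log2 fold change was 0.22 ± 0.03 (95% interval 0.15 to 0.29, limma adjusted p = 4.70e-05). Il6st, the gp130 chain shared by both receptors, had 8.06, 8.08 and 8.07 log2 CPM in high glucose, against 7.79, 7.77 and 7.76 log2 CPM in control (0.29 ± 0.02, limma adjusted p = 5.20e-08). The spread within each Il6st group was far smaller than the difference between the groups.

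Of the other 5 measured chains of the family, 2 were lower, 1 was higher and 2 did not pass. Il6r, which binds interleukin-6, had 1.44, 1.19 and 1.86 log2 CPM in high glucose, against 2.55, 2.51 and 2.57 log2 CPM in control, and was 2.07-fold lower (-1.05 ± 0.16, limma adjusted p = 7.83e-05). Cntfr, which binds CNTF, was 2.15-fold lower on 83 reads over the high-glucose samples and 166 over the control samples (-1.10 ± 0.23, limma adjusted p = 0.00112). Il11ra1, which binds interleukin-11, rose by 0.17 ± 0.06 (limma adjusted p = 0.0239), a call that did not hold without high glucose 2 (0.0815), control 1 (0.0768) or control 2 (0.0837). Il31ra did not pass, on 94 reads over the high-glucose samples and 69 over the control samples (0.40 ± 0.30, limma adjusted p = 0.289), nor did Il27ra, on 42 and 34 reads (0.18 ± 0.39, limma adjusted p = 0.732). Over the 8 measured receptor chains, 4 were higher and 2 lower, with a median of 0.20. The median was 0.31 with plain library totals, 0.12 without control 1 and 0.25 without high glucose 1 or control 2.

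Ratios of genes within a sample do not depend on how the library was scaled. The log2 ratio of Lifr to Osmr was 0.251 higher in high glucose than in control, with no overlap of the groups (exact two-sided permutation test, p = 0.1, the smallest that 3 against 3 samples allow, adjusted p = 0.25 over 5 ratios). The ratio of Osmr to Il6st differed by -0.0751 and that of Lifr to Il6st by 0.175, both with overlapping groups (exact permutation p = 0.2 each, adjusted p = 0.25). The exact permutation test cannot reach 0.05 with 3 against 3 samples, so it does not settle whether the 3 chains rose unequally.

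**Figure D2:**
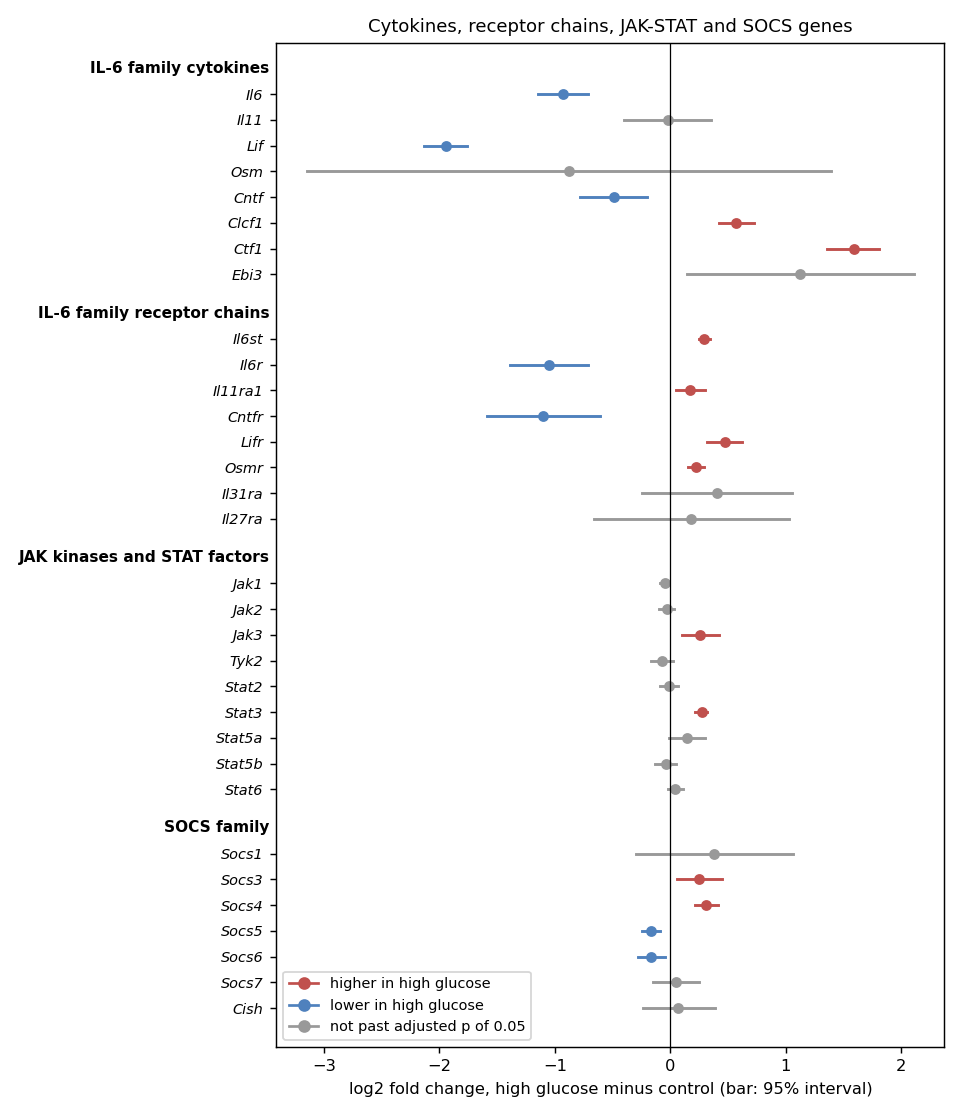
Log2 fold change, high glucose minus control, of measured IL-6 family cytokines, receptor chains, JAK kinases, STAT factors and SOCS genes, with its 95% interval from limma. Red marks genes higher in high glucose, blue marks genes lower, and grey marks genes not past an adjusted p of 0.05. Lif at -1.94 and Ctf1 at 1.59 lie farthest from 0 on the left and on the right, and the receptor chains Il6st, Lifr and Osmr lie between 0.22 and 0.47.

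The kinases were nearly level. Jak1 (ENSRNOG00000011157), the JAK family kinase most used by gp130, had 8.23, 8.26 and 8.25 log2 CPM in high glucose, against 8.31, 8.30 and 8.28 log2 CPM in control, on 8799 to 10405 reads per sample. The high-glucose samples all lay below the control samples, but the difference was -0.05 ± 0.02 (95% interval -0.09 to -0.01, limma adjusted p = 0.0593) and did not pass. Its sign depended on the scaling, since Jak1 was at 0.03 after quantile normalization and at 0.07 with plain library totals (limma adjusted p = 0.239 and 0.0125), where the median gene was at 0.125 with plain library totals. Jak1 overlaps Raver2 in the RefSeq gene table of another assembly.

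Jak2 (ENSRNOG00000059968), which serves growth hormone and many other cytokine receptors as well, had 5.99, 6.0 and 5.99 log2 CPM in high glucose, against 6.04, 6.04 and 6.0 log2 CPM in control. The difference was -0.03 ± 0.03 (95% interval -0.10 to 0.03, limma adjusted p = 0.378), and it was 0.01 after quantile normalization and 0.08 with plain library totals. The intervals on the deposited scale leave room for changes of at most 1.07-fold in either kinase. The log2 ratio of Jak2 to Jak1 differed by 0.014 between the groups (exact permutation p = 0.2, adjusted p = 0.25).

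Stat3 (ENSRNOG00000019742), the main transcription factor of this route, had 7.96, 7.94 and 7.90 log2 CPM in high glucose, against 7.69, 7.68 and 7.63 log2 CPM in control, on 7479 to 8146 reads and 5723 to 6335 reads per sample. The groups were apart by several times the spread within them. The fold was small, at 1.2-fold (0.27 ± 0.02, 95% interval 0.21 to 0.32, limma adjusted p = 7.95e-07). RNA abundance does not report the phosphorylation on which STAT3 activity depends, which was not measured here.

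Of the 10 measured JAK kinases and STAT factors, 3 were higher and none was lower in limma, with a median of 0.02. One gene, Jak1, was lower at an unadjusted p under 0.05, 3 genes of the list passed with voom weights, and 8 were higher with plain library totals. Jak3, a kinase of lymphocyte cytokine receptors, rose by 0.26 ± 0.07 (limma adjusted p = 0.00966). Stat2, Stat5a, Stat5b, Stat6 and Tyk2 had log2 fold changes between -0.07 and 0.14 that did not pass.

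The inhibitors were scarcer and less even. Socs3 (ENSRNOG00000002946), which binds gp130 and its JAK kinases and is a STAT3 target, had 2.81, 2.85 and 2.76 log2 CPM in high glucose, against 2.58, 2.58 and 2.50 log2 CPM in control, on 210 to 231 reads and 166 to 184 reads per sample. The groups did not overlap, and Socs3 rose 1.19-fold (0.25 ± 0.09, 95% interval 0.06 to 0.45, limma adjusted p = 0.0302). The call was close to the threshold: it did not hold after quantile normalization (0.0561) or without high glucose 1 (0.0703), high glucose 2 (0.0919), control 2 (0.0514) or control 3 (0.0809). The log2 ratio of Socs3 to Stat3 differed by -0.0134 between the groups (exact permutation p = 0.6, adjusted p = 0.6), with overlapping groups.

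Socs1 (ENSRNOG00000002568), an inhibitor best known from interferon signalling, had 27, 28 and 18 reads in high glucose, against 17, 14 and 20 reads in control. The groups overlapped, and its value of 0.38 ± 0.31 (95% interval -0.30 to 1.06, limma adjusted p = 0.343) did not pass. Socs1 overlaps a long non-coding RNA gene in the RefSeq table, as does Il6st. A change of up to 2.08-fold in Socs1 lies within that interval at this depth. Cish (ENSRNOG00000029543), a target and inhibitor of STAT5 signalling, had 142, 110 and 171 reads in high glucose, against 123, 116 and 127 reads in control. The high-glucose samples spread more widely than the control samples and enclosed them. The value was 0.07 ± 0.15 (95% interval -0.24 to 0.39, limma adjusted p = 0.71) and did not pass.

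Other SOCS genes changed in both directions. Socs4 rose by 0.31 ± 0.05 (limma adjusted p = 6.52e-05), while Socs5 fell by 0.17 ± 0.04 and Socs6 by 0.17 ± 0.05 on the log2 scale (limma adjusted p = 0.00132 and 0.017). With plain library totals Socs5 was at -0.06 and Socs6 at -0.05 and neither passed (0.2 and 0.434). Socs6 also did not pass without high glucose 1 (0.071) or control 3 (0.0829), or with a single variance prior (0.0837). Of 7 measured SOCS genes, 2 were higher, 2 lower and 3 not past the test, at a median of 0.07. The median was 0.19 with plain library totals, where none was lower, and 0.23 without high glucose 2. The higher count was 1 wherever the call of Socs3 was lost, and the lower count was 1 wherever, apart from plain library totals, that of Socs6 was.

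STAT dimers bind palindromes of the form TTCNNNGAA, and the promoter of Cish is a classic target of STAT5. RefSeq promoter windows on the rat build GRCr8, from 250 bases before to 50 after the gene start, were at hand for 7 of the 10 genes, namely Jak2, Lifr, Osmr, Stat3, Socs1, Socs3 and Cish. TTCNNNGAA reads the same on both strands. It was found in 8.87% of 33469 promoter windows of 300 bases, and among the 7 genes in Cish and Socs1. The Cish window held 4 matches, beginning 241, 230, 136 and 119 bases before the start, and was 1 of 2 windows among the 33469 with at least 4. Of these, 2 were of the narrower form TTCCNGGAA, found in 1.27% of windows, which overlaps the wider motif at the same positions. The Socs1 window held 1 match, 196 bases before the start. The first 160 bases of 4 windows are printed, those of Cish and Socs1 with matches and those of Osmr and Stat3 without. Neither Cish nor Socs1 passed, Socs1 on 73 reads in high glucose and 51 in control, while Osmr and Stat3 rose. The windows of Lifr and Socs3, which rose, and of Jak2, which did not pass, also held no match. A relation between matches and changes was not tested. Capitals mark TTCNNNGAA.
Cish (chr8:116850719-116850878, GRCr8, plus strand): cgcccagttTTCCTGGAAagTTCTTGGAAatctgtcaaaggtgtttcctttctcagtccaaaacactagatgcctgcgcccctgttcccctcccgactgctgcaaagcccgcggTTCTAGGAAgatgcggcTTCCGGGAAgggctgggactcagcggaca
Socs1 (chr10:5389324-5389483, GRCr8, plus strand): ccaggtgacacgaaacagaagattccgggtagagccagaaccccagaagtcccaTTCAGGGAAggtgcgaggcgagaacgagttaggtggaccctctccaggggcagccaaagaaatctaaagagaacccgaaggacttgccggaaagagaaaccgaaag
Osmr (chr2:57688652-57688811, GRCr8, minus strand): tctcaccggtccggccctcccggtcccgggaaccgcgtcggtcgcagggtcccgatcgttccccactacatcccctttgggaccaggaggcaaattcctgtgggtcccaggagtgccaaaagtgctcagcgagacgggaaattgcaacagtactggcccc
Stat3 (chr10:86363450-86363609, GRCr8, minus strand): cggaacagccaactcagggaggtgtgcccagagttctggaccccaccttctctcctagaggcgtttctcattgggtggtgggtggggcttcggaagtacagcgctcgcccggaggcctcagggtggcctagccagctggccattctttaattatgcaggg
A match describes these letters only, and sites outside the windows were not searched.

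Genes known as STAT3 targets did not share a direction. Of 24 measured, 8 were higher, 12 lower and 4 did not pass, where 24.9% of all genes were higher and 25.5% lower. The median log2 fold change of the 24 was -0.12, or -0.01 with plain library totals and -0.21 after either filter on low values. Among those that rose, Ccl2, a chemokine that attracts monocytes, had 4.77, 4.69 and 4.79 log2 CPM in high glucose, against 2.79, 2.67 and 2.76 log2 CPM in control, and was 4.02-fold higher (2.01 ± 0.06, limma adjusted p = 1.92e-11). Lbp, the lipopolysaccharide binding protein of the acute phase, was 2.03-fold higher (1.02 ± 0.03). Bcl6, a transcriptional repressor, and Hif1a, the oxygen-sensing factor, rose by 0.85 ± 0.07 and 0.30 ± 0.02.

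Among the targets that fell, Vegfa, the vascular growth factor, had 5.54, 5.63 and 5.63 log2 CPM in high glucose, against 7.03, 6.97 and 6.99 log2 CPM in control, and was 2.63-fold lower (-1.39 ± 0.03, limma adjusted p = 1.10e-12). Gadd45g, a growth arrest gene, was 3.04-fold lower (-1.60 ± 0.04), the cell cycle gene Ccnd1 2.19-fold (-1.13 ± 0.04) and Myc 1.95-fold (-0.96 ± 0.04). Junb, an early target in many cells, had overlapping groups and did not pass (-0.06 ± 0.03, limma adjusted p = 0.138). All of these genes also answer to factors other than STAT3.

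Of 12 other negative regulators of JAK-STAT signalling, 4 were higher and 2 lower, 6 did not pass, and the median was 0.00, or 0.12 with plain library totals. Pias1 and Pias3, of a family that binds STAT factors in the nucleus, rose by 0.51 ± 0.04 and 0.33 ± 0.04 (limma adjusted p = 1.09e-07 and 9.71e-06), and Ptpn11, the phosphatase SHP2 that docks on gp130 where SOCS3 does, by 0.24 ± 0.02 (limma adjusted p = 6.32e-07). Pias4 rose by 0.15 ± 0.05 (limma adjusted p = 0.0242), with adjusted p-values of 0.0506 to 0.0668 when any of high glucose 1, 2 or 3 or control 1 or 3 was left out. Dusp3 fell by 0.22 ± 0.03 on the log2 scale (limma adjusted p = 3.36e-05). The other gene that fell, Usp18, an interferon feedback gene named after its values were seen, had 42 reads over the high-glucose samples and 75 over the control samples (-1.04 ± 0.36, limma adjusted p = 0.0298, range 0.0122 to 0.121 over the alternatives).

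**Figure D3:**
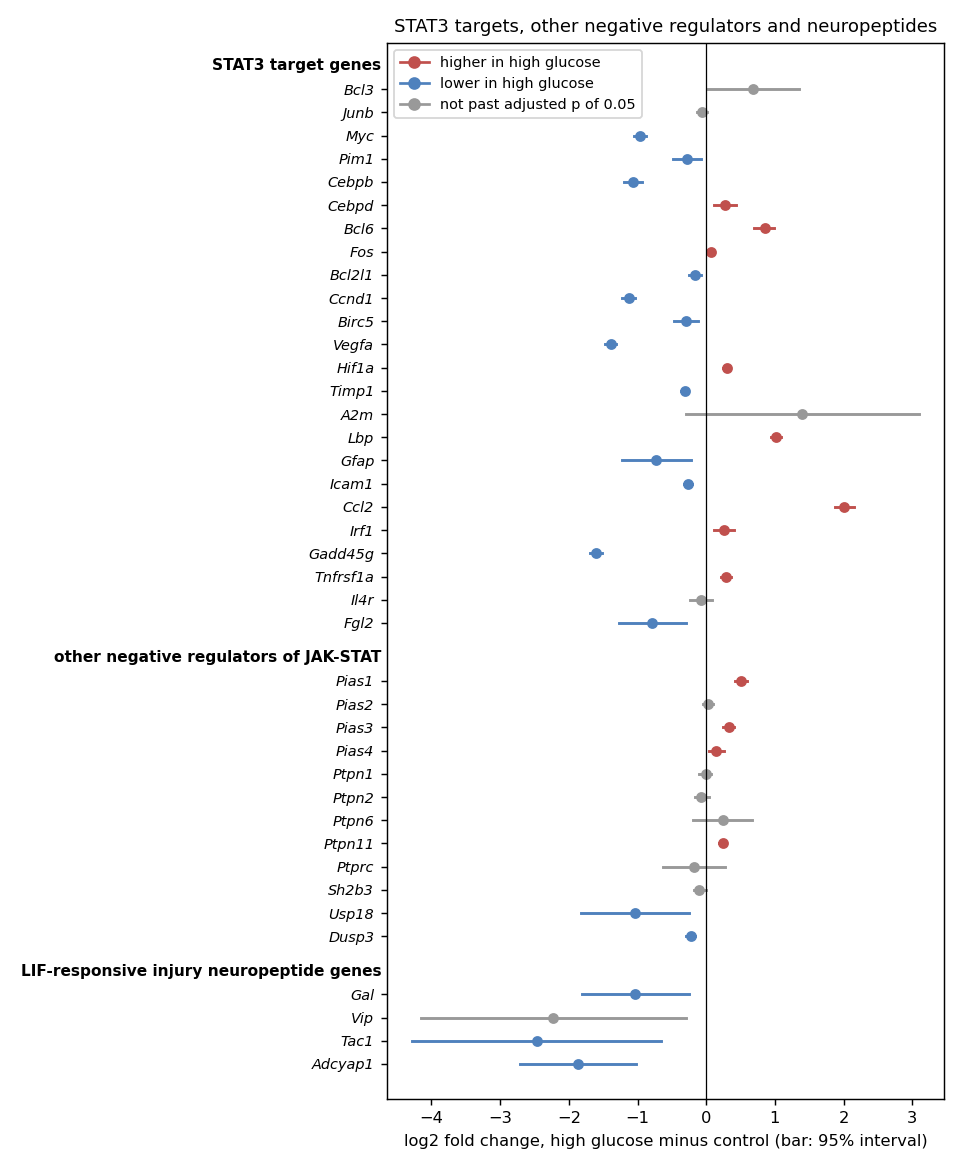
Log2 fold change, high glucose minus control, with its 95% interval from limma, of every measured STAT3 target, other negative regulator of JAK-STAT signalling and neuropeptide gene of the lists used. Red marks genes higher in high glucose, blue marks genes lower and grey marks genes not past an adjusted p of 0.05. The STAT3 targets run from -1.60 for Gadd45g to 2.01 for Ccl2, with 8 higher and 12 lower. The position of Tac1, with 0 reads in high glucose, depends on the constant added before the logarithm.

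Neuropeptide genes that LIF and nerve injury are known to regulate in sensory neurons had few reads. Of 8 listed, 4 had a row, and 3 of them were lower in high glucose, as were 25.5% of all genes. The neuropeptide genes were named after their values were seen. Gal, galanin, had 46 reads over the high-glucose samples and 83 over the control samples (-1.03 ± 0.36, limma adjusted p = 0.0293, range 0.00641 to 0.125 over the alternatives). Adcyap1, the gene of the peptide PACAP, had 14 in high glucose and 50 in control (-1.87 ± 0.39, limma adjusted p = 0.00123), and Tac1, the substance P gene, had 0 in high glucose and 7 in control (limma adjusted p = 0.0252, range 0.00967 to 0.131 over the alternatives). Vip did not pass, on 2 reads over the high-glucose samples and 12 over the control samples (limma adjusted p = 0.0528). Of the 14 neuron markers counted above, 8 were lower in the same samples, and their part in these values was not tested.

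Receptors and factors that share these kinases were mixed as well. Of 14 growth hormone, prolactin and haematopoietin receptors and STAT5 targets, 4 were higher and 2 lower. Of all genes, 24.9% were higher and 25.5% lower. The median of the 14 was -0.12. The median turned to 0.10 after either filter on low values and was -0.01 with plain library totals. The lower count was 0 with plain library totals and 4 after quantile normalization, and 1 with a single variance prior or without high glucose 3, control 2 or control 3. Igf1, the insulin-like growth factor that STAT5 induces in liver, rose 3.91-fold, with 5.60, 5.62 and 5.67 log2 CPM in high glucose and 3.70, 3.67 and 3.61 log2 CPM in control (1.97 ± 0.05, limma adjusted p = 1.31e-12). Il13ra1, a chain of the interleukin-13 receptor, rose by 1.19 ± 0.24 (limma adjusted p = 0.000805) and Csf2ra, a chain of the GM-CSF receptor, by 0.38 ± 0.10 (limma adjusted p = 0.00718). The STAT5 targets Bcl2l1 and Pim1 fell by 0.17 ± 0.04 and 0.28 ± 0.09 on the log2 scale. With plain library totals neither passed (limma adjusted p = 0.252 and 0.154), and Pim1 also did not without high glucose 3 (0.088), control 2 (0.0788) or control 3 (0.0546) or with a single variance prior (0.118).

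Among 10 interferon receptors and factors close to them, 3 were higher and 3 lower, with a median of -0.01. With plain library totals 5 were higher and 1 lower, with a median of 0.10. The factors Irf9 and Irf1 rose by 0.34 ± 0.06 and 0.26 ± 0.07 (limma adjusted p = 0.000433 and 0.00598). The interferon gamma receptor chains Ifngr2 and Ifngr1 fell by 0.44 ± 0.05 and 0.16 ± 0.04 on the log2 scale (limma adjusted p = 6.30e-06 and 0.00359), and Gbp2, an interferon-induced GTPase, by 0.22 ± 0.05 (limma adjusted p = 0.00288). With plain library totals Ifngr1 was at -0.04 and Gbp2 at -0.10, and neither passed (limma adjusted p = 0.365 and 0.111).

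**Figure D4:**
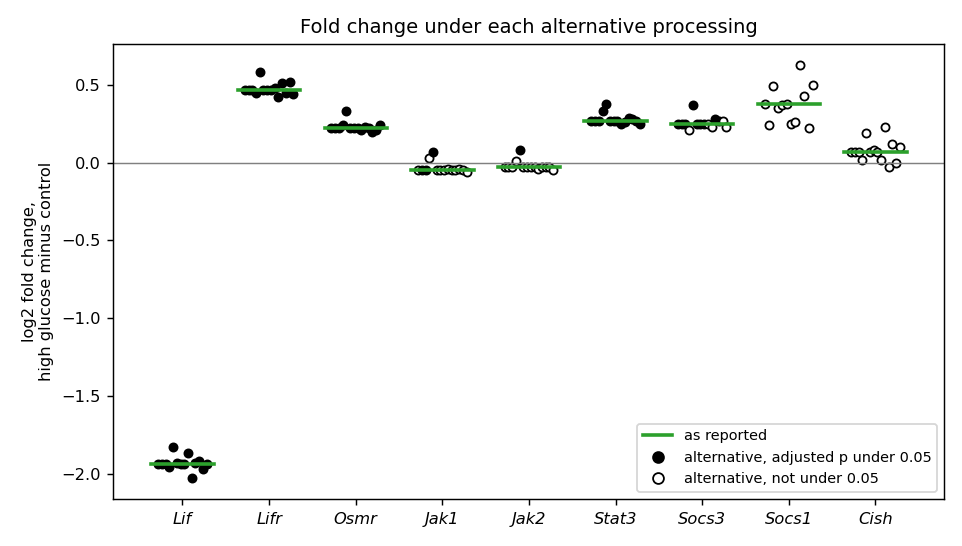
Log2 fold change, high glucose minus control, of the 9 measured genes as reported (green line) and under each of up to 14 alternatives (circles, filled where the adjusted p was under 0.05). Lif, Lifr, Osmr and Stat3 passed in all 14, Socs3 in 9, and Jak1, Jak2 and Cish have alternatives on both sides of 0.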

How the data were processed

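RNA sequencing values of 6 samples were used. The build Rnor_6.0 and the tools featureCounts 1.6.0, fastp 0.19.4 and HISAT2 2.1.0 are named, per the submitters' processing notes, with no role or settings; the annotation and strand of counting were not given in the sources used here. The authors deposited log2 values, voom-normalized per the file names, for 16551 mRNA genes. Reads were worked back from them (100% of values within 0.01 of a whole read). Scaling factors were 1.03 to 1.05 in high glucose and 0.959 to 0.964 in control.

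Genes were tested with limma 3.58.1 in R 4.3.3 (group term, mean-variance trend, two-sided, Benjamini-Hochberg adjustment over all genes, threshold 0.05). The fit was also run on simulated data. These had few changed genes and no scaling difference between groups, so they cannot test the fit under the shifts seen here. Ratios used exact permutation in scipy 1.17.1. Figures used matplotlib 3.10.9. The members and lists were chosen with earlier results of these data known. Named were all members, up to 4 genes per pathway list and direction by smallest p and a log2 mean not under 0, Il6st, Osm, Cntf and the 3 genes most like Lif; Il11, Ebi3, Il31ra, Il27ra, Junb and the STAT and kinase genes that did not pass were added after their values were seen, as were the genes said to be so. Mean chi-square per gene between replicates was 2.914 to 4.617, so none was a copy. Alternatives were 14 in number. The lncRNA table was not used here. Some genes counted in the lists are not reported here by name.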

Additional observations from a re-analysis of the deposited data

How the results depend on the processing

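Lif, Lifr, Osmr and Stat3 kept their direction and passed under all 14 alternatives, with log2 fold changes of -2.03 to -1.83, 0.42 to 0.58, 0.20 to 0.33 and 0.25 to 0.38. Jak1 passed as lower (-0.05) among genes whose mean was 0 or more on the log2 scale and without the lowest 25% of genes, where fewer genes were tested, and with plain library totals Jak1 (0.07) and Jak2 (0.08) passed as higher. Socs3 did not pass after quantile normalization (0.21), where the cause was not tested, and leaving out 1 sample gave 0.23 to 0.28. Socs1 and Cish passed under none. Socs1 was left out by both filters on low values, and Cish ran from -0.03 to 0.23. Plain library totals gave 5932 genes higher and 2847 lower, or 67.6% of calls higher against 49.4%. With a replicate block 3968 genes were higher and 4084 lower, Socs3 passed at an adjusted p of 0.0494 and no call of the 9 genes changed. The numbers did not pair the samples: deviations of same-numbered samples correlated at -0.0921, -0.0433 and 0.0255, and no high-glucose sample correlated best with its own number. The exact permutation test used for the ratios cannot reach 0.05, and the direction of each held under the alternatives run. Of 530 alternative values of other named genes, 21 lost their call and none reversed. Low read counts limit what could be detected for Socs1 and Osm.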
